A study of Bos taurus with 24 samples.

Results

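CXCL8 (ENSBTAG00000019716, also called interleukin 8) and CCL5 (ENSBTAG00000007191, also called RANTES) were followed in bovine monocyte-derived macrophages (MDMs) with and without Escherichia coli. They were set by their gene identifiers, as 2 of the 24616 genes listed for each library. The rule used no measured value, but earlier results of these data were known when the genes were chosen. The study compared MDMs of 6 Holstein cows, placed beforehand in a high and a low responder group of 3 cows each by the nitric oxide their cells released after E. coli in vitro. All cows were female and lactating, and blood monocytes of every cow were grown for 6 days in serum-free medium with 5 ng/ml of recombinant bovine GM-CSF, a growth factor that turns monocytes into macrophages. Wells were then left as controls or given E. coli killed with paraformaldehyde (PFA) at 5 bacteria per cell (MOI 5), and RNA was taken at 3 or 18 hours. That gave 8 groups of 3 libraries, with a control well and an exposed well of the same cow carrying the same code (91 to 94). A code pairs wells only within a responder group and time. The same code at 3 and at 18 hours need not be the same cow, and codes recur in both responder groups for different cows. The labels do not state which cow is which across times. Each time point had its own culture plate, so time and plate cannot be told apart.

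Chemokines are small secreted proteins that draw leukocytes along a gradient. CXCL8 acts on the receptors CXCR1 and CXCR2 and is the classical attractant of neutrophils, the cells that enter the udder first when E. coli infects it. CCL5 acts on receptors that include CCR1 and CCR3 and draws T cells, monocytes and eosinophils. In macrophages both genes are switched on by bacterial lipopolysaccharide through Toll-like receptor signalling, where NF-kB and AP-1 factors act on CXCL8 and interferon regulatory factors take a larger part at CCL5.

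The annotation used by the study holds 1 transcript for each gene, of 1481 bases for CXCL8 and 732 bases for CCL5. Both genes had whole-number counts in all 24 libraries, so no read pair had been divided between them and another gene. Library totals ran from 6297190 to 20936554 estimated counts. The lowest count of any library was 2995 for CXCL8 and 454 for CCL5. Of 11 macrophage markers, the 6 that could be matched to an identifier summed to between 3051 and 7795 CPM (counts scaled to a common library size) in every library. This sum mixed markers that moved in opposite directions at 18 hours. With E. coli, 2 of the 6 were called higher and 2 lower in high responders, against 2 higher and 4 lower in low responders. CYBB rose 4.15-fold in high and 2.28-fold in low responders, while MSR1 fell 18.7-fold and 9.78-fold (edgeR adjusted p = 1.62e-07 and 1.04e-06). At 3 hours 1 was called higher and 0 lower in each responder group. The shares of all tested genes called higher were 15.7% and 9.93% at 3 hours and 17.1% and 11.3% at 18 hours, in high and low responders. The shares called lower are not given here, so the counts of lower markers have no baseline to be read against. PRF1, CD79A and LTF, the single matched markers of T and NK cells, B cells and neutrophils, reached at most 3.25, 1.94 and 1.63 CPM. At 18 hours PRF1 rose with E. coli together with the chemokines, from a mean of 0.636 to 2.86 CPM in high responders (edgeR adjusted p = 0.000570) and from 0.339 to 1.46 CPM in low responders (adjusted p = 0.00398). LTF rose from 0.156 to 1.02 CPM in high responders (edgeR adjusted p = 0.0232), and CD79A was not called at either time. The part of these cells in the chemokine values was not tested. No marker of dendritic cells or platelets could be matched. In such bulk RNA, fewer cells of a type and less RNA per cell cannot be told apart.

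CXCL8 was a well expressed gene without bacteria and one of the most abundant transcripts with them. In control wells of the high responder group at 3 hours it stood at 527 (code 92), 305 (code 93) and 452.5 CPM (code 94), a mean of 428 ± 113 (SD, n = 3). The control wells of the low responder group at 3 hours held 703 (code 91), 435 (code 92) and 906 CPM (code 93), a mean of 681 ± 236. The ranges of the groups overlapped. At 18 hours high responder control wells read 480 (code 91), 465 (code 93) and 402 CPM (code 94), and those of the low responder group read 311 (code 91), 502 (code 92) and 785 CPM (code 94). The 3 low responder cows therefore enclosed the high responder cows, with means of 533 ± 239 and 449 ± 41.3 CPM.

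With E. coli for 3 hours, CXCL8 reached 13499 (code 92), 15430 (code 93) and 8387 CPM (code 94) in the high responder group. It reached 11331 (code 91), 12365 (code 92) and 13053 CPM (code 93) in the low responder group. The means, 12439 ± 3639 and 12250 ± 867 CPM, lay within the spread of the high responder group. At 18 hours the exposed wells of the high responder group held 16248 (code 91), 14056 (code 93) and 15548 CPM (code 94), a mean of 15284 ± 1119. Those of the low responder group held 7947 (code 91), 5853 (code 92) and 10466 CPM (code 94), a mean of 8089 ± 2309. Here every high responder cow was above every low responder cow, and the means differed 1.89-fold. By TPM, a measure of abundance that corrects for transcript length, CXCL8 ranked between 4th and 14th of all listed genes in the 12 exposed libraries, and it took between 0.633% and 1.54% of their counts.

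CCL5 was low in unexposed cells of the high responder group. Their control wells at 3 hours held 100 (code 92), 32.4 (code 93) and 131 CPM (code 94), a mean of 88.0 ± 50.7 (SD, n = 3). The control wells of the low responder group held 701 (code 91), 566 (code 92) and 304 CPM (code 93), a mean of 523 ± 202. The groups did not overlap, and the low responder mean was 5.94 times the other. At 18 hours high responder control wells held 134 (code 91), 70.5 (code 93) and 29.6 CPM (code 94), a mean of 78.2 ± 52.8. Those of the low responder group held 286 (code 91), 327 (code 92) and 306 CPM (code 94), a mean of 307 ± 20.2. The groups again did not overlap, and the low responder mean was 3.92 times that of the high responder group.

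With E. coli the CCL5 levels of the responder groups overlapped. At 3 hours the exposed wells of the high responder group held 3980 (code 92), 4434 (code 93) and 2379 CPM (code 94), a mean of 3598 ± 1080, and those of the low responder group held 5639 (code 91), 5004 (code 92) and 2984 CPM (code 93), a mean of 4542 ± 1387. At 18 hours they held 7195 (code 91), 4672 (code 93) and 6079 CPM (code 94) in the high responder group, a mean of 5982 ± 1264, and 6787 (code 91), 4271 (code 92) and 3892 CPM (code 94) in the low responder group, a mean of 4983 ± 1574. CCL5 ranked between 2nd and 23rd by TPM in the 12 exposed libraries, and between 90th and 1801st in the 12 control libraries.

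**Figure D1:**
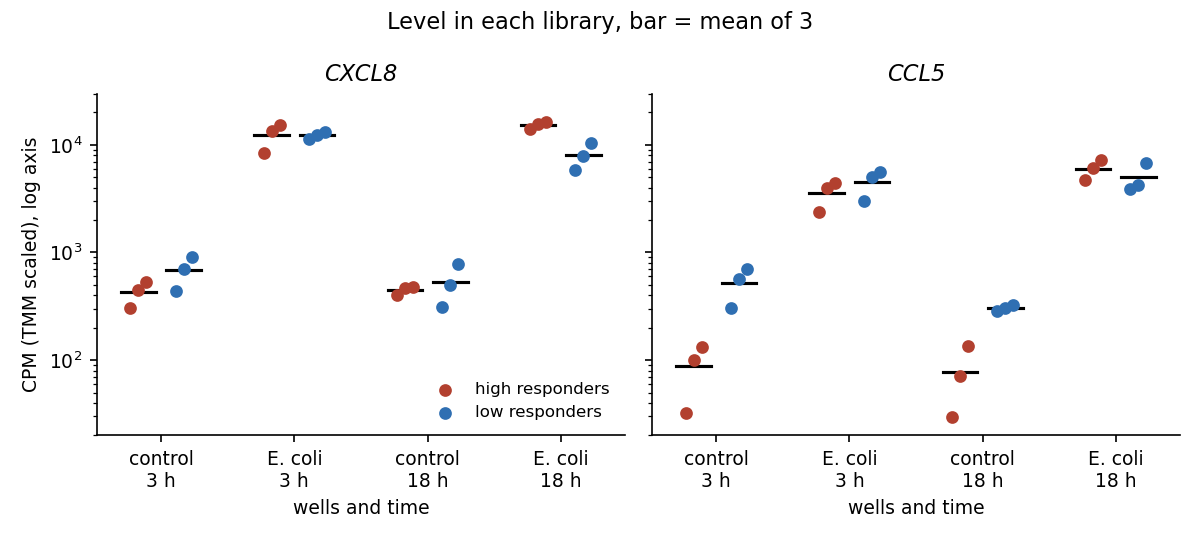
Each point is 1 library, the y axis is CPM on a log scale, the x axis gives wells and time, and black bars are means of 3. All exposed libraries lie above all control libraries for both genes; in control wells the CCL5 points of the high responder group (29.6 to 134 CPM) lie below all those of the low responder group (286 to 701 CPM).

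Ordered by mean CPM over the 8 groups, the 4 exposed groups came first for both genes. For CXCL8 the order was high responders at 18 hours, high responders at 3 hours, low responders at 3 hours and low responders at 18 hours. Among neighbours in that order, only low responders at 3 and at 18 hours had ranges that did not overlap. For CCL5 the exposed order was high responders at 18 hours, low responders at 18 hours, low responders at 3 hours and high responders at 3 hours, and each overlapped the next. Below them stood the low responder controls of 3 and 18 hours, whose ranges overlapped, and then, with no overlap, the high responder controls of 3 and 18 hours.

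The first question of the design was how E. coli changed each gene within a responder group. A gene was called where edgeR's quasi-likelihood test, with a term for each cow, gave a Benjamini-Hochberg adjusted p below 0.05 over all genes tested and a fold change above 1.5. Both genes rose in all 4 comparisons and in every cow. The share of all tested genes called higher was 15.7% in high responders and 9.93% in low responders at 3 hours, and 17.1% and 11.3% at 18 hours.

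CXCL8 rose in the high responder group by a log2 fold change of 4.90 at 3 hours (SE 0.31, 29.9-fold, edgeR adjusted p = 7.71e-06) and of 5.08 at 18 hours (SE 0.22, 33.8-fold, adjusted p = 1.18e-07). In the low responder group it rose by 4.24 at 3 hours (SE 0.30, 18.9-fold, edgeR adjusted p = 3.11e-05) and by 3.96 at 18 hours (SE 0.21, 15.6-fold, adjusted p = 7.27e-07). Cow by cow, the folds at 3 hours were 25.6 (code 92), 50.6 (code 93) and 18.5 (code 94) in high responders and 16.1 (code 91), 28.4 (code 92) and 14.4 (code 93) in low responders. At 18 hours they were 33.8 (code 91), 30.2 (code 93) and 38.7 (code 94) in high responders and 25.6 (code 91), 11.7 (code 92) and 13.3 (code 94) in low responders. The cows overlapped at 3 hours and not at 18 hours.

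CCL5 rose in the high responder group by 5.56 on the log2 scale at 3 hours (SE 0.50, 47.1-fold, edgeR adjusted p = 5.40e-05) and by 6.45 at 18 hours (SE 0.39, 87.2-fold, adjusted p = 8.41e-07). In the low responder group the rise was 3.16 at 3 hours (SE 0.44, 8.95-fold, edgeR adjusted p = 0.00124) and 3.96 at 18 hours (SE 0.34, 15.5-fold, adjusted p = 1.38e-05). At 3 hours the folds of single cows were 39.7 (code 92), 137 (code 93) and 18.1 (code 94) in high responders and 8.05 (code 91), 8.85 (code 92) and 9.82 (code 93) in low responders. At 18 hours they were 53.6 (code 91), 66.3 (code 93) and 205 (code 94) in high responders and 23.7 (code 91), 13.1 (code 92) and 12.7 (code 94) in low responders. Every high responder cow had a larger fold than every low responder cow at both times. The largest folds at each time belonged to the cows with the lowest control wells, 32.4 CPM at 3 hours and 29.6 CPM at 18 hours. As each fold divides by the control well, a low control well raises it by construction.

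**Figure D2:**
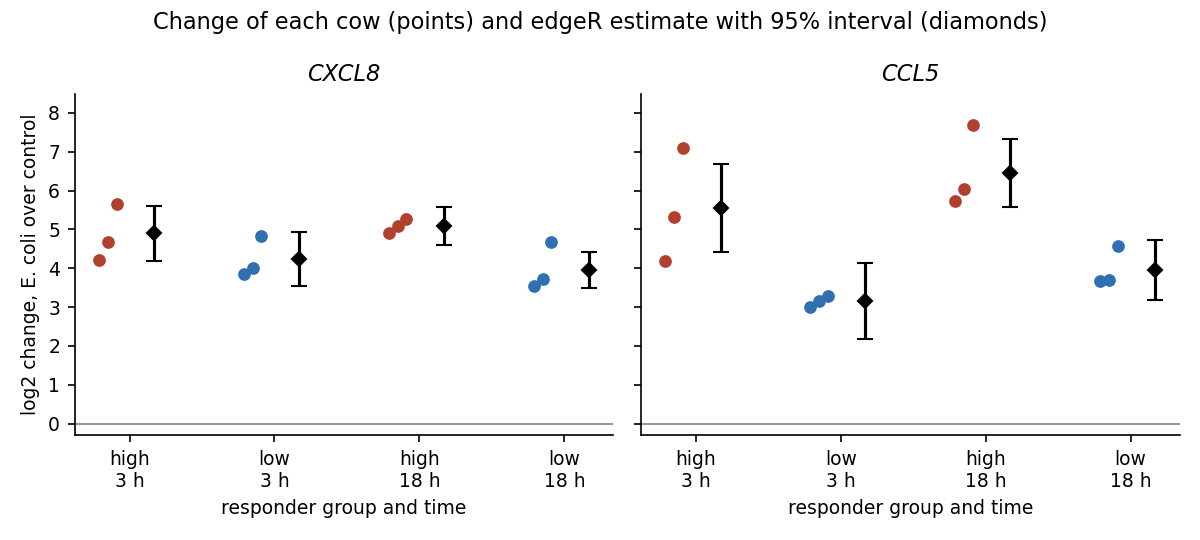
Points are the log2 changes (exposed over control CPM) of single cows, red for high and blue for low responders, and diamonds are edgeR estimates with 95% intervals; the x axis gives responder group and time. For CCL5 the lowest high responder cow (4.18 at 3 hours, 5.74 at 18 hours) is above the highest low responder cow (3.30 and 4.57); for CXCL8 this holds at 18 hours (4.92 against 4.68) and not at 3 hours.

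The study's main comparison was the difference of these effects, high minus low responders. The study itself named both genes as more strongly expressed in high responders at 18 hours, so the 18 hours values are not independent evidence of that direction. At 3 hours 0.178% of the tested genes were called for this difference. CXCL8 differed by 0.66 (SE 0.38, 95% interval -0.20 to 1.52, edgeR adjusted p = 0.504) and CCL5 by 2.40 (SE 0.60, 95% interval 1.04 to 3.75, adjusted p = 0.166), and neither was called. CCL5 had an unadjusted p of 0.00318 at 3 hours and the 34th largest difference of 11264 genes in either direction. Without the high responder cow of code 94, which had the smallest fold of its group, the CCL5 difference at 3 hours was 3.06 and was called (edgeR adjusted p = 0.000532). Leaving out that cow raises the difference by construction, and the range over all cows left out is given below.

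At 18 hours 1.62% of the tested genes were called, and CCL5 was among them. Its rise was larger in high responders by 2.49 on the log2 scale (SE 0.45, 95% interval 1.48 to 3.50, 5.62-fold, edgeR adjusted p = 0.0314). The call was lost when the low responder of code 92 (2.35) or that of code 94 (2.34) was left out, and with all 24 libraries in 1 fit (2.49, adjusted p = 0.0717). In a fit with an added exposure term for codes 91 and 92 against 93 and 94, a grouping the labels do not give, it was 2.39 with an edgeR adjusted p of 0.1004. Without the term for the cow, which leaves the wells unpaired, it was 2.25 with an edgeR adjusted p of 0.268. CXCL8 differed by 1.12 (SE 0.26, 95% interval 0.53 to 1.71, 2.17-fold, edgeR adjusted p = 0.0664) and was not called, while DESeq2 called it (1.14, adjusted p = 0.000129). Without the low responder cow of code 91, the one with the largest low responder fold, the CXCL8 difference was 1.45 with an edgeR adjusted p of 0.00574. This choice of cow also raises the difference by construction, and the range over all cows is given below. The changes of single cows did not overlap between the responder groups for CCL5 at either time and for CXCL8 at 18 hours, as was the case for 20.6% of all genes tested at 3 hours and 22.5% at 18 hours.

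The difference between responder groups was then split by wells. For CCL5 the control wells of high responders were lower by 2.59 on the log2 scale at 3 hours (SE 0.53, edgeR adjusted p = 0.198) and by 1.99 at 18 hours (SE 0.47, adjusted p = 0.0796). Exposed wells differed by -0.31 at 3 hours (SE 0.32, edgeR adjusted p = 0.699) and by 0.26 at 18 hours (SE 0.26, adjusted p = 0.621). On the scale of mean log2 CPM, control wells accounted for 114% of the CCL5 difference at 3 hours, where exposed wells pointed the other way, and for 88.6% at 18 hours. None of these comparisons of wells was called for CCL5, in fits where 0.00906% of genes were called in control wells and 0.0839% in exposed wells at 3 hours, and 0.15% and 0.0446% at 18 hours. With DESeq2 the lower CCL5 level in high responder control wells was called at both times (-2.60, adjusted p = 7.11e-05, and -1.99, adjusted p = 0.00968).

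For CXCL8, control wells differed by -0.68 at 3 hours (SE 0.31, edgeR adjusted p = 0.672) and by -0.26 at 18 hours (SE 0.30, adjusted p = 0.654), and exposed wells by 0.06 at 3 hours (SE 0.27, adjusted p = 0.947) and by 0.92 at 18 hours (SE 0.23, adjusted p = 0.116). On the scale of mean log2 CPM, control wells accounted for 104% of the CXCL8 difference at 3 hours and for 13.5% at 18 hours. Exposed wells at 3 hours differed by -0.02 on this scale, against 0.06 in the edgeR fit. Neither of these CXCL8 differences of effects was called by edgeR, nor was their change from 3 to 18 hours. The higher exposed level of the high responder group at 18 hours was not called by edgeR and was called by DESeq2 (0.93, adjusted p = 0.00106). High and low responder libraries did not overlap for CCL5 in control wells at either time and for CXCL8 in exposed wells at 18 hours. The same was true of 12.7% of tested genes in control wells at 3 hours, 28.5% in control wells at 18 hours and 25% in exposed wells at 18 hours.

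**Figure D3:**
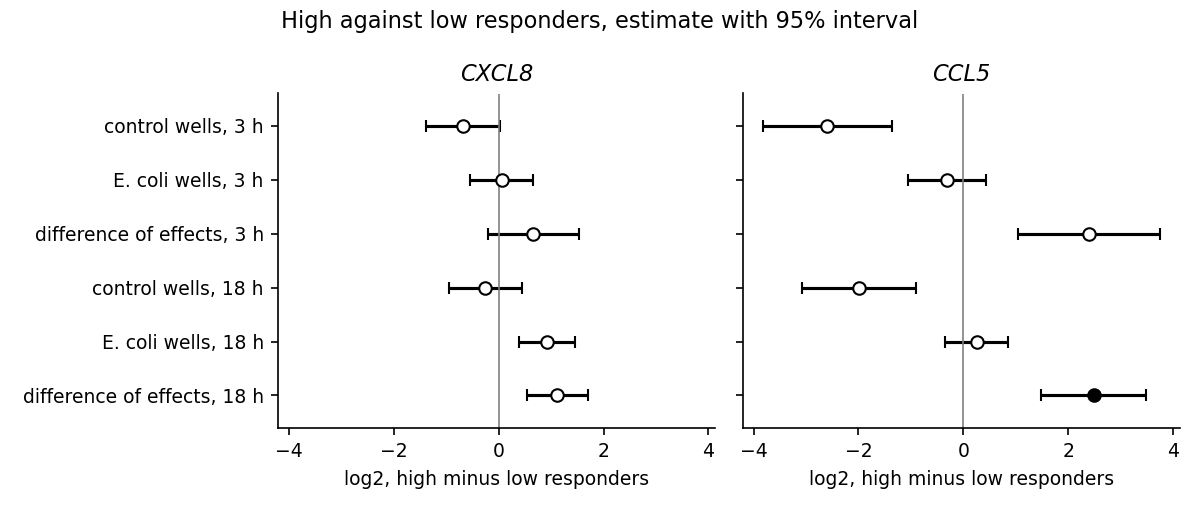
Estimates of high minus low responders on the log2 scale (x axis) with 95% intervals, for control wells, exposed wells and the difference of E. coli effects at each time (y axis); the filled point was called, open points were not. The CCL5 estimates lie left of 0 in control wells (-2.59 and -1.99) and near 0 in exposed wells (-0.31 and 0.26), while the CXCL8 estimate in exposed wells moves from 0.06 at 3 hours to 0.92 at 18 hours.

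Neither gene was called between 3 and 18 hours in any group, in a fit without a term for the cow that treats wells of the same cow as independent. In control wells, where 0.0084% of genes were called in high responders and 0.0336% in low responders, CXCL8 changed by 0.07 (SE 0.31) and -0.36 (SE 0.31) and CCL5 by -0.17 (SE 0.47) and -0.77 (SE 0.47), with edgeR adjusted p between 0.9996 and 1. In exposed wells 23.8% of genes were called in high responders and 19.4% in low responders. There CXCL8 changed by 0.30 in high responders (SE 0.31, 95% interval -0.34 to 0.94, edgeR adjusted p = 0.506) and by -0.60 in low responders (SE 0.31, 95% interval -1.24 to 0.04, adjusted p = 0.168). With wells of both times matched by a letter in the library names, which the labels do not tie to a cow, the fall of CXCL8 in low responders was called (-0.64, edgeR adjusted p = 0.0490). CCL5 changed by 0.73 in high responders (SE 0.47, 95% interval -0.25 to 1.71, edgeR adjusted p = 0.260) and by 0.13 in low responders (SE 0.47, 95% interval -0.84 to 1.11, adjusted p = 0.868). The change of the high minus low difference from 3 to 18 hours was 0.49 for CXCL8 (SE 0.53, 95% interval -0.64 to 1.62, edgeR adjusted p = 0.803) and 0.13 for CCL5 (SE 0.86, 95% interval -1.72 to 1.99, adjusted p = 0.979), in an edgeR fit that called 0 genes, or 0% of those tested. DESeq2 called 32 genes, and 1160 were below an unadjusted p of 0.05 in edgeR.

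The ratio of the chemokines, taken per length as CXCL8 TPM over CCL5 TPM, did not overlap between responder groups in control wells. CCL5 alone did not overlap there either, so the ratio is no separate result. Single genes without overlap made up 12.7% of those tested in control wells at 3 hours and 28.5% at 18 hours. How many gene pairs would separate in this way was not counted. In control wells at 3 hours it was 2.24 (code 92), 3.96 (code 93) and 1.46 (code 94) in high responders and 0.426 (code 91), 0.324 (code 92) and 1.25 (code 93) in low responders. In control wells at 18 hours it was 1.503 (code 91), 2.79 (code 93) and 5.79 (code 94) in high responders and 0.457 (code 91), 0.651 (code 92) and 1.08 (code 94) in low responders. CXCL8 was thus the more abundant transcript in all 6 high responder controls, and CCL5 in 4 of the 6 low responder controls. The mean log2 ratio was higher in high responders by 2.07 at 3 hours and by 2.08 at 18 hours. The exact permutation test, two-sided, gave p = 0.1 at each time, which is the smallest p that 3 against 3 cows allow, and 0.2 after adjustment over the 4 ratio comparisons.

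In exposed wells the ratios drew together. At 3 hours they lay between 1.44 and 1.49 in high responders and between 0.854 and 1.84 in low responders, and at 18 hours between 0.948 and 1.27 and between 0.501 and 1.13. The groups overlapped, with a difference of 0.31 in mean log2 ratio at 3 hours (exact permutation p = 0.4, two-sided, adjusted 0.4) and of 0.66 at 18 hours (exact permutation p = 0.3, adjusted 0.4).

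**Figure D4:**
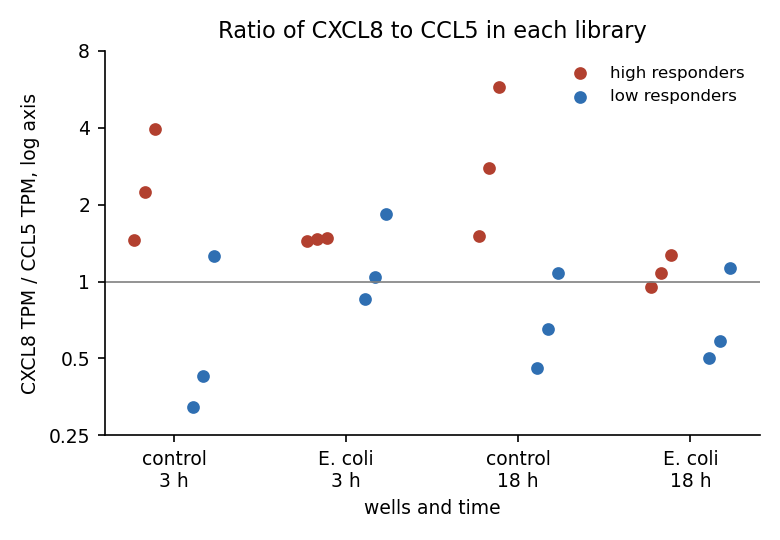
The y axis gives CXCL8 TPM divided by CCL5 TPM on a log scale, 1 point per library, and the x axis gives wells and time; the grey line marks equal abundance. High responder control wells lie between 1.46 and 5.79 and low responder control wells between 0.324 and 1.25, without overlap within a time.

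Across all 24 libraries, log2 CPM of CXCL8 and CCL5 had a Pearson r of 0.929 and a Spearman rho of 0.858. These libraries share 6 cows and fall into an unexposed and an exposed set, so the value includes the step between the sets. Within the 12 control libraries r was 0.512 and within the 12 exposed libraries 0.256. The genes most like CXCL8 by Pearson r over the 24 libraries, among 11904 other genes, were CXCL2 (0.991), IRF1 (0.988), SLC2A3 (0.985), IL1B (0.984) and ACOD1 (0.983), and CCL5 came 124th. The genes most like CCL5 were EDN1 (0.967), C10H15orf48 (0.963), NCF1 (0.962), ENSBTAG00000011563 (0.962) and ENSBTAG00000003994 (0.961), and CXCL8 came 44th. SLC2A3 is a glucose transporter, IL1B the interleukin 1 beta cytokine, ACOD1 the enzyme that makes itaconate, EDN1 the vessel-constricting peptide endothelin 1 and NCF1 a subunit of the phagocyte oxidase.

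Other chemokine ligands give the setting of these values. Of 37 ligand symbols, 9 could be matched to an identifier, 7 of them only because the study's own ranking for 18 hours lists them, so their counts are no independent sample of the family. CCL28 was at or under 0.136 CPM in every library and was not tested. Of the 8 tested, 8 rose in high responders at 3 hours and 7 in low responders, with CCL17 (1.22-fold, edgeR adjusted p = 0.402) as the exception. At 18 hours 6 rose in each responder group, CCL8 fell in each and CCL17 was not called in either. Called higher among all tested genes were 15.7% in high and 9.93% in low responders at 3 hours, and 17.1% and 11.3% at 18 hours. The median log2 fold change of the 8 was 4.82 and 2.99 at 3 hours and 3.41 and 2.41 at 18 hours in high and low responders, beside -0.01, -0.03, -0.04 and 0.00 over all genes tested. In control wells the 8 had a median high minus low difference of -1.21 at 3 hours and -0.18 at 18 hours. Over all genes it was 0.01 at both times. At 3 hours CCL8 (-2.08), CCL4 (-1.36) and CCL3 (-1.06) were lower in high responders there, like CCL5. In exposed wells at 18 hours CCL4 (1.12), CCL3 (0.88) and CXCL2 (0.70) were higher, like CXCL8, and CCL17 lower (-2.59). Of the 8, 0 were called in either kind of well, in fits that called at most 0.15% of genes.

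Of the 8 ligands, edgeR called CCL5 and CXCL16 for a different effect between responder groups at 18 hours, beside 1.62% of all genes tested. DESeq2, which called more genes than edgeR at both times, also called CXCL8. Most of these ligands were found through the study's 18 hours ranking, so the count cannot show an excess over all genes. At 3 hours edgeR, which called 0.178% of all genes tested, and DESeq2 each called 0 of the 8, of which 4 had an unadjusted edgeR p below 0.05. CXCL16, a membrane-bound ligand of CXCR6, rose 9.29-fold in high responders and 5.54-fold in low responders at 18 hours, a difference of 0.75 (SE 0.15, edgeR adjusted p = 0.0417) that was called under 6 of 14 alternatives and lost when any cow but the low responder of code 91 was left out (0.63 to 0.85 over all alternatives). CXCL2, like CXCL8 a neutrophil attractant, rose 31.2-fold in high responders and 22.8-fold in low responders at 3 hours and 23.9-fold and 18.2-fold at 18 hours. Its difference was 0.40 at 18 hours (SE 0.16, edgeR adjusted p = 0.234). CXCL2 had fractional counts in all 24 libraries, so part of its reads had been shared with another gene and its values are less certain.

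CCL3 and CCL4, attractants of monocytes and T cells, were also followed over time. CCL4 rose 47.3-fold at 3 hours in high responders and 12.2-fold at 18 hours, and 19.3-fold and 5.11-fold in low responders. Its exposed wells held 10169 CPM at 3 hours and 3599 CPM at 18 hours in high responders, a fall of log2 -1.499 (SE 0.40, edgeR adjusted p = 0.00893), and 10607 and 1651 CPM in low responders (log2 -2.68, SE 0.42, adjusted p = 0.000170). CCL3 fell from 3 to 18 hours in exposed wells of low responders (log2 -1.49, SE 0.37, edgeR adjusted p = 0.00666), and in high responders its change was -0.35 (SE 0.36, adjusted p = 0.507). CCL8, a monocyte attractant, rose 26.6-fold in high and 7.03-fold in low responders at 3 hours and at 18 hours stood 6.25-fold and 32.7-fold lower in exposed than in control wells. These counts of CCL3, CCL4 and CCL8 were whole in every library.

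**Figure D5:**
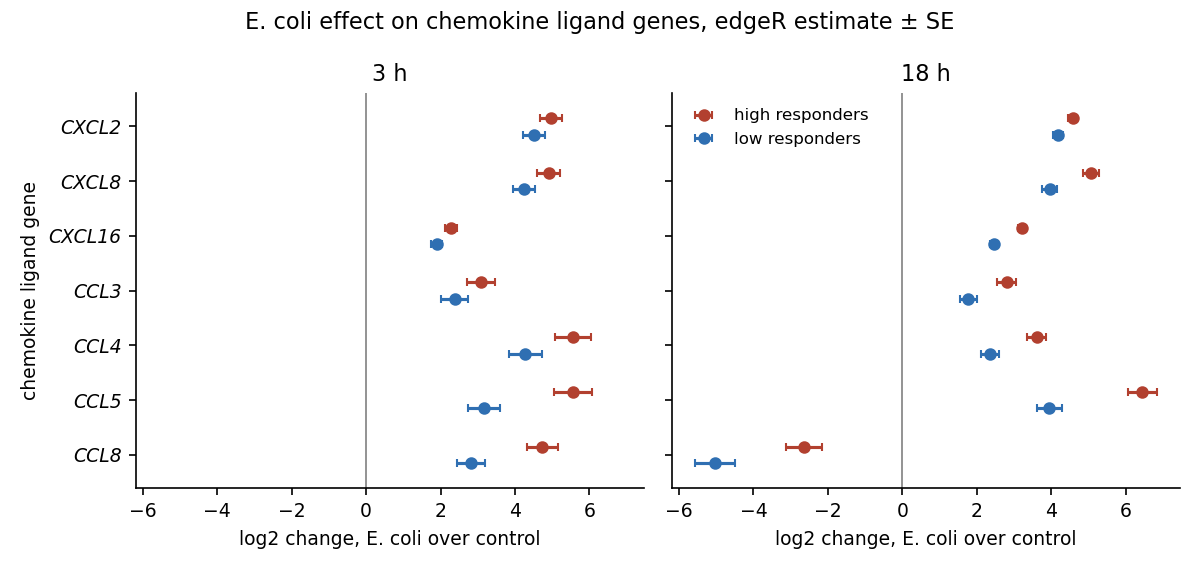
log2 change with E. coli (x axis) of the 7 ligand genes with a mean above 10 CPM (y axis), as edgeR estimates ± SE, at 3 hours on the left and 18 hours on the right. CXCL8 stays near 4 to 5 at both times and CCL5 reaches 6.45 in high responders at 18 hours, while CCL4 drops to 3.61 and 2.35 and CCL8 turns to -2.64 and -5.03.

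Receptors of the chemokines were measured in part. CXCR1 and CXCR2 could not be matched to an identifier. CCR1, a receptor of CCL5, was expressed by the MDMs and fell at 3 hours, from 967 to 199 CPM in high responders (log2 -2.18, SE 0.24, edgeR adjusted p = 0.000174) and from 759 to 206 CPM in low responders (log2 -1.84, SE 0.24, adjusted p = 0.000880). At 18 hours CCR1 changed by 0.14 in high responders (SE 0.13, edgeR adjusted p = 0.388) and by -0.29 in low responders (SE 0.13, adjusted p = 0.0893). CCR3 was at or under 0.256 CPM in every library. CXCR4 and CCRL2, named here after their values were seen, made up the other 2 of the 3 tested receptors. Both rose in all 4 comparisons, and CCRL2, an atypical receptor that binds chemerin, was called for a larger rise in high responders at 18 hours (1.27, SE 0.19, edgeR adjusted p = 0.0138), a call that was lost when the low responder of code 92 or 94 was left out and without the term for the cow. By direction, 2 of 3 rose and 1 fell at 3 hours and 2 of 3 rose at 18 hours in each responder group. Among all genes tested, 15.7% in high and 9.93% in low responders were called higher at 3 hours, and 17.1% and 11.3% at 18 hours.

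A list of 26 symbols held transcription factors and regulators of NF-kB signalling, among them the inhibitors TNFAIP3, NFKBIB and NFKBIE. Of the 26, 17 had an identifier and were tested, 16 of them found through the study's 18 hours ranking. Of the 17, 17 rose in high responders and 14 in low responders at 3 hours, and 16 and 10 rose at 18 hours, beside 15.7%, 9.93%, 17.1% and 11.3% of all genes tested in the same order. Their median log2 fold change was 2.59, 1.69, 1.23 and 0.85, beside -0.01, -0.03, -0.04 and 0.00 over all genes. Because most were found through that ranking, these counts are no independent sample of regulators. Among the most abundant, IRF1, an interferon regulatory factor, rose by 4.93 and 3.71 at 3 hours and by 4.59 and 3.32 at 18 hours in high and low responders. NFKBIZ, a nuclear partner of NF-kB, rose by 4.91 and 3.76 at 3 hours and by 3.49 and 3.07 at 18 hours. NFKB2, an NF-kB subunit, rose by 3.77 and 3.04 and then by 2.41 and 2.01. ATF3, a stress-induced repressor of inflammatory genes, rose by 2.41 and 1.69 at 3 hours and by 1.21 in high responders at 18 hours, with 0.32 in low responders (edgeR adjusted p = 0.270).

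For the difference between responder groups, 3 of the 17 regulators were called at 18 hours, beside 1.62% of all genes tested, and 1 at 3 hours, beside 0.178%. Because 16 of the 17 were found through the study's own 18 hours ranking of high against low responders, these counts cannot show an excess over all genes. At 18 hours these were IRF1 (1.27, SE 0.16, edgeR adjusted p = 0.00799), JUN (adjusted p = 0.0482) and IRF9 (adjusted p = 0.0402), and at 3 hours FOSL2 (adjusted p = 0.0265), with JUN, IRF9 and FOSL2 named after their values were seen. IRF1 was called under 13 of 14 alternatives, JUN and IRF9 under 5 each, with each cow left out in turn among those that lost the call, and FOSL2 under 8. Of 7 factors that act on the stability of chemokine mRNA, ELAVL1 alone could be matched and it was not called, with changes between -0.04 and 0.11 (edgeR adjusted p between 0.276 and 0.926).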

How the data were processed

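The submitters' notes name Trimmomatic, FastQC 0.11.5, STAR, RSEM and DESeq2 1.22.2. The authors trimmed paired-end reads of stranded mRNA libraries, mapped them to a bovine genome and estimated expected counts, TPM and effective lengths per gene with RSEM, and these are the deposited values of the 24 libraries. Expected counts are not normalized. TPM values are the authors' and are scaled by transcript length.

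Expected counts were rounded. Genes with too few counts were removed (filterByExpr), libraries were scaled by TMM, and edgeR 4.0.16 (R 4.3.3) quasi-likelihood tests were fitted on all genes, with Benjamini-Hochberg adjustment. Calls needed an adjusted p below 0.05 and a fold above 1.5. Effects and their difference used the 12 libraries of a time with a term for each cow, and comparisons of wells used 6 libraries without one. Comparisons of levels over time used all 24 libraries without a term for the cow. They treat wells of the same cow as independent, as the labels do not tie a cow to both times. The change of the difference used all 24 libraries with a term for each cow at each time. CPM in the text are TMM-scaled over 24 libraries. The study's methods pair wells by number within a responder group. Deviations from group means correlated at 0.327 to 0.732 in the 12 same-number pairs and at -0.568 to 0.00521 in the 24 others. The alternatives were RLE factors, no filter, a mean of 50 counts, DESeq2 1.42.0 with or without length offsets, no cow term, all 24 libraries, an adjusted p below 0.1, each cow left out, a pairing by library letter for comparisons over time and, chosen after seeing the data, an exposure term split by library code. The tests were tried on simulated counts.

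Symbols came from copies of the study's supplementary gene lists, which pair 2808 identifiers with names, 974 of them only through their rank in the 18 hours comparison. Members, lists and tests were chosen with earlier results of these data known. The genes named were both chemokines, ligands with a mean above 10 CPM, receptors of both, the 5 regulators or decay factors with the largest mean CPM, and the 5 genes most correlated with each chemokine. Some items that this rule names are not reported here. No gene coordinates or sequences were used here.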

Additional observations from a re-analysis of the deposited data

Results flagged for a closer look

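The CCL5 difference of E. coli effects at 18 hours, high minus low responders, was 2.49 on the log2 scale (edgeR adjusted p = 0.0314) and stands out because the effect of E. coli differed between the responder groups by a direct test. All 3 high responder cows had larger changes (5.74 to 7.68) than all 3 low responder cows (3.67 to 4.57), as was the case, in either direction, for 22.5% of all genes tested. On the scale of mean log2 CPM, control wells accounted for 88.6% of this difference. Exposed wells overlapped between the responder groups (0.26, edgeR adjusted p = 0.621). The call was lost under some alternatives, which are given below.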

How the results depend on the processing

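All 4 effects of E. coli on each gene kept their direction and their call under every alternative run. Of 432 alternative values of both genes over all comparisons, 402 kept their call and direction, 5 lost the call, 11 gained it and 14 turned sign, and no value that turned sign was called. All 5 lost calls were those of the CCL5 difference at 18 hours. The 402 include comparisons that were not called in the main fit and stayed so. The CCL5 difference at 18 hours (2.49) was not called with no replicate block (2.25), with an exposure term split by library code (2.39) or with all 24 libraries in 1 fit (2.49). It was also not called without the low responder of code 92 or that of code 94, and ranged from 1.93 to 2.88 with 1 cow left out. The CCL5 difference at 3 hours ranged from 1.65 to 3.06 with 1 cow left out. The CXCL8 difference at 18 hours (1.12) was called with no filter (1.13), with DESeq2 (1.14), with DESeq2 and length offsets (1.14) and at an adjusted p below 0.1 (1.12), and ranged from 0.89 to 1.45 with 1 cow left out. In control wells CCL5 was called with DESeq2 (-2.60 at 3 hours, -1.99 at 18 hours) and at 3 hours with all 24 libraries (-2.57), and in exposed wells at 18 hours CXCL8 was called with DESeq2 (0.93).

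With 1 cow left out, CXCL8 in exposed wells at 3 hours ranged from -0.15 to 0.26 and in control wells at 18 hours from -0.53 to 0.12. Over time, control wells of high responders ranged from -0.13 to 0.24 for CXCL8 and from -0.81 to 0.25 for CCL5, and exposed wells of low responders from -0.15 to 0.32 for CCL5. The change of the CCL5 difference ranged from -0.57 to 0.90 and was -0.0012 with no replicate block. With a replicate block by library letter, the fall of CXCL8 in exposed wells of low responders was called (-0.64). The paired fit changed no other call of either gene. The causes were not tested.

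Counts of called genes moved more. The difference counted 20 genes at 3 hours and 190 at 18 hours, with 103 and 435 without a filter, 183 and 383 with DESeq2, 184 and 390 with DESeq2 and length offsets, 165 and 124 with all 24 libraries, 0 and 67 with the code term, 123 and 448 at an adjusted p below 0.1, 0 and 0 with no replicate block, and 0 to 506 and 30 to 178 with 1 cow left out. Control wells counted 1 and 17 genes, with 8 and 219 unfiltered, 241 and 703 with DESeq2, 199 and 48 with all 24 libraries and 0 to 28 and 0 to 129 with 1 cow left out. Exposed wells counted 9 and 5, with 51 and 41, 283 and 641, 132 and 117, and 0 to 72 and 0 to 52 in the same order. Effects of E. coli at 3 hours counted 3113 in high and 1995 in low responders, with 1824 and 829 with no replicate block, 1678 in high responders with the code term and 932 to 2423 in low responders with 1 cow left out. Between times, control wells counted 1 and 4 genes, with 8 and 7 with DESeq2 and 25 and 26 by library letter. With 3 cows per responder group, and depths as low as 6297190 counts, differences that miss the threshold are not shown to be absent.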
